A study of Homo sapiens with 11 samples.

Results

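The genes described here are the cytosolic and mitochondrial heat shock chaperones and their regulators, 35 of the 58721 genes in the count table. They were chosen by name and role, though with earlier results of these data known. They fill 36 entries of that table, because HSPA14 has 2 Ensembl records, ENSG00000187522 and ENSG00000284024, which are given apart. All 36 passed the filter on low counts and were tested, although DNAJA4 was nearly silent (0.0369 to 0.551 CPM, a gene's counts scaled to a common library size and composition). HSPA13 encodes a microsomal HSP70 relative, so the cytosolic and mitochondrial heading does not describe it strictly. The samples are cultures of A375, a human melanoma line in long use, whose genotype is labelled WT in every group. The parental group is 1 untreated library. The persister group is 5 libraries from cells kept in 2 nM trametinib, an inhibitor of the MEK kinases that activate ERK, for 8 weeks. The withdrawn group is 5 libraries named after the same 5 persister cultures and collected after 4 weeks without the drug. The labels do not say if each culture went through the drug on its own. The p-values therefore measure only the spread between these libraries, which may be technical, and the parental library has no spread of its own.

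Heat shock proteins are chaperones that bind unfolded or partly folded proteins and help them fold, refold or reach a protease. HSP70 proteins work in cycles of ATP binding and hydrolysis that J-domain proteins start and that nucleotide exchange factors, such as the HSP110 and BAG proteins, complete; HSP90 takes over late-stage clients, among them many kinases, with co-chaperones such as STIP1 and AHSA1. Small heat shock proteins hold unfolded proteins without using ATP, and HSPD1 with HSPE1 forms the folding chamber of the mitochondrial matrix. HSF1 is the main transcription factor of the heat shock response and binds repeats of a short element, nGAAn, in the promoters of many of these genes.

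The total count per library was 56513920 to 82984566. DUSP6, an ERK target used as a check of the drug, was at 168 CPM in the parental library, 24.8 ± 4.78 in persister libraries and 186 ± 9.28 in withdrawn libraries (SD, n = 5 each), and 9 of 10 ERK output genes were lower in persister than in parental cells and 9 of 10 higher after withdrawal. Melanocyte lineage genes went both ways: of 7 tested, persister cells had 4 above the parental library and 2 below it by the test, and after withdrawal 3 rose and 3 fell. The lineage factor SOX10 was at 635 CPM in the parental library, 29.2 to 86.6 in persister and 792 to 838 in withdrawn libraries, and the pigment enzyme DCT at 2.94 CPM, 229 to 740 CPM and 16.4 to 64.1 CPM. MLANA was at 1.15 CPM, 11.0 to 23.5 CPM and 0.445 to 0.826 CPM, and TYRP1 at 0.122 CPM, 2.26 to 7.43 CPM and 0.0570 to 0.151 CPM. The 8 genes of the list summed to 790 CPM, 392 to 1003 CPM and 1034 to 1140 CPM, with TYR near 0 throughout and PMEL at 2.77 CPM at most. Of 8 fibroblast markers, 6 rose in persister cells and their sum was 16.1 CPM in the parental library, 82.8 to 384 in persister and 33.6 to 47.3 in withdrawn libraries. Leukocyte markers summed to 7.02 CPM in the parental library, nearly all LYZ, and to 4.89 CPM or less elsewhere. Muscle markers summed to 0.219 CPM at most, with MYOG at 0, and endothelial markers to 26.4 CPM at most. Keratinocyte markers summed to 35.1 to 59.7 CPM, nearly all KRT10, with KRT1 at 0. The share of counts from mitochondrial genes was 2.96% in the parental library, 4.51% to 9.28% in persister and 3.15% to 3.70% in withdrawn libraries. The part of these shifts in the chaperone values was not tested, and in bulk RNA fewer cells of a kind and less RNA per cell cannot be told apart.

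In persister cells the small heat shock proteins, a set of J-domain co-chaperones, BAG1 and BAG2 were higher than in the parental library. BAG3 was not called, and BAG4, which is outside the members, was lower. The abundant HSP70, HSP90 and mitochondrial chaperones were not called different. In the edgeR quasi-likelihood fit over all 23693 genes tested, with Benjamini-Hochberg adjusted p under 0.05 as the call, 11 of the 36 entries were higher in persister than in parental cells, against 16.1% of all genes. These were HSPB1, HSPB8, CRYAB, DNAJB1, DNAJB2, DNAJB4, DNAJB5, DNAJB6, BAG1, BAG2 and HSPA2. Lower in persister cells were 4 (HSPA6, HSPA12A, HSPA14 and HSF2), against 15.1% of all genes. The median log2 fold change of the members was -0.04, beside 0.09 for all genes tested. With only the parental and persister libraries in the fit, 5 calls were made (HSPB8, CRYAB, HSPB1, DNAJB4 and DNAJB5, all higher), against 5.94% of all genes higher and 5.33% lower.

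After withdrawal the balance was downward: 18 of 36 entries were lower in withdrawn than in persister cells, against 28% of all genes, and 4 were higher, against 24.5%. The median log2 fold change was -0.31 for the members and -0.03 for all genes. Besides the 11 genes listed as higher in persister cells, those lower after withdrawal were HSPA1A, HSPA1B, HSPA8, HSPA4L, HSPA9, HSPE1 and DNAJA1. Higher after withdrawal were HSPA6, HSPA12A, HSF2 and TRAP1. Both comparisons use the same 5 persister libraries, so their calls are not independent of each other. For 16 entries every withdrawn library lay below every persister library (44.4%, against 20.3% of all genes), and for 4 every one lay above (11.1%, against 20.3%). Neither comparison called 13 entries, among them HSP90AA1, HSP90AB1, HSPD1, HSPH1, HSPA4, BAG3, STIP1 and HSF1.

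Few members were called between withdrawn and parental cells in the edgeR fit over 3 groups: HSPB8 was higher (0.312% of all genes were) and no entry lower (0.118% of all genes were). At an unadjusted p under 0.05, 4 entries were higher and 5 lower, for which the share of all genes is not given here. After adjustment DESeq2 called 4 entries higher and 4 lower, beside 775 and 409 of the 23693 genes tested. The 4 higher were HSPB8, CRYAB, HSPB1 and DNAJB5, and the 4 lower were HSPA8, HSPH1, HSPA1B and DNAJA1. All 5 withdrawn libraries lay below the parental library for 19 of 36 entries (52.8%, against 30.8% of all genes) and above it for 9 (25%, against 33%), where persister libraries all lay above it for 14 (38.9%, against 32.7%) and below it for 11 (30.6%, against 30.9%). With only the parental and withdrawn libraries in the fit, 6 entries were higher (16.1% of all genes) and 17 lower (14.4% of all genes), so the number of members called after 4 weeks depends on which libraries enter the fit. Those 17 include HSPA8, HSPH1, HSPA1A, HSPA1B, DNAJA1, BAG1, HSPA9 and HSPD1.

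**Figure D1:**
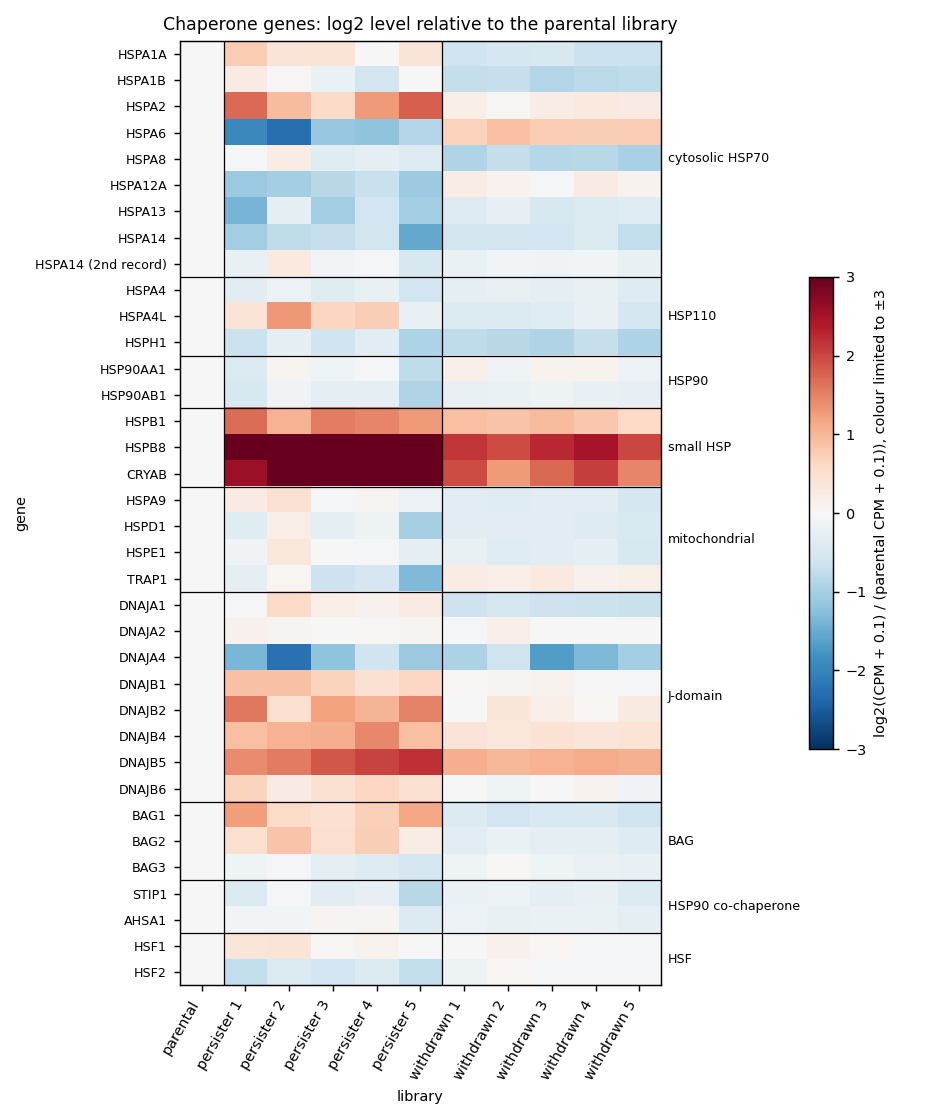
Level of the 36 chaperone entries (rows, grouped by role) in the 11 libraries (columns), as the log2 ratio of CPM to the parental library, with 0.1 CPM added to both and the colour limited to 3 in either direction. HSPB8 and CRYAB are the darkest rows in persister libraries and stay above the parental library after withdrawal, while HSPA8, HSPA1A and DNAJA1 are below it in all 5 withdrawn libraries.

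The heat shock element is shown in the promoters of members whose RNA went in different directions. Promoter windows of 250 bases before the RefSeq start (GRCh38.p14) were matched for 32 of the 35 genes and searched on both strands for a run of 3 units, GAANNTTCNNGAA or TTCNNGAANNTTC, and for a pair of units, GAANNTTC or TTCNNGAA, which every run of 3 also holds. The stretches below avoid annotated exons, or are 30 bases around the match where the window overlaps one; capitals mark the runs of 3 units or, where there is none, the pair, and each is read 5′ to 3′ along the gene.
HSPB8: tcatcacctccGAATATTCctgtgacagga
HSPA6: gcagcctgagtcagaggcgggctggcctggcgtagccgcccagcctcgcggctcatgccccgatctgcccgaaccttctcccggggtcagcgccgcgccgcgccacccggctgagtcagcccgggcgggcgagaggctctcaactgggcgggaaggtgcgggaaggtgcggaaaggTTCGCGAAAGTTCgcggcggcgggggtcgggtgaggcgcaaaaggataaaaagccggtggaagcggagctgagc
DNAJB6: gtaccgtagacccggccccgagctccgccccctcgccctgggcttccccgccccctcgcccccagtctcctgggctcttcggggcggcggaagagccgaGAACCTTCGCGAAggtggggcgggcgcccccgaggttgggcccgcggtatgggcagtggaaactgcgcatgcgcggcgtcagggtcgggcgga
HSPA8: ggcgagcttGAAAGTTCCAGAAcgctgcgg
HSP90AA1: ggagggttcTTCCGGAAGGTTCgggaggct
HSP90AB1: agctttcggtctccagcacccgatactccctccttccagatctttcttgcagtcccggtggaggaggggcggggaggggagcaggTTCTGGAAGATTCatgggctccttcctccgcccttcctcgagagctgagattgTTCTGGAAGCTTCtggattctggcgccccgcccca
HSPD1: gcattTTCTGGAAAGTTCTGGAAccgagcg

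The HSPB8 stretch is chr12:119178832-119178861 (plus strand) and that of HSPA6 is chr1:161524290-161524539 (plus). DNAJB6 is chr7:157336774-157336965 (plus), HSPA8 chr11:123062346-123062375 (minus) and HSP90AA1 chr14:102087112-102087141 (minus). HSP90AB1 is chr6:44247693-44247865 (plus) and HSPD1 chr2:197500061-197500090 (minus). The windows of HSPA8, HSP90AB1 and HSPD1 hold 2 runs of 3 units each. Both are in the stretches shown for HSP90AB1 and HSPD1 (where they overlap), while HSPA8 has a further run nearer the start, TTCTGGAAGGTTC, outside its printed stretch. A run of 3 units stood in the windows of 6 of the 32 matched members (18.8%), namely HSPA6, HSPD1, HSP90AB1, DNAJB6, HSPA8 and HSP90AA1. It stood in 152 of the 27305 genes that had a promoter window (0.557%), a set other than the genes tested. A pair of units stood in 16 of the 32 (50%) and in 14% of the 27305. Some genes have more than 1 RefSeq start, each with its own window. For HSPD1, HSP90AB1 and HSP90AA1 the run was not in every window. By window, the run stood in 6 of 47 for the members (12.8%) and in 155 of 35116 for all (0.441%). Of the 6 with a run of 3 units, DNAJB6 was called higher in persister than in parental cells (16.1% of all genes tested were). HSPA6 was called lower (15.1% of all genes tested were), and HSPD1, HSP90AB1, HSPA8 and HSP90AA1 were not called. After withdrawal DNAJB6 and HSPA8 were called lower than in persister cells (28% of all genes tested) and HSPA6 higher (24.5%), and the rest were not called. HSPB8, the member with the largest rise, holds a pair of units that starts 88 bases before the RefSeq start and no run of 3. A match describes the letters of these windows only, and binding was not measured.

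The small heat shock proteins HSPB8 and CRYAB had the largest rises of the 36 entries in persister against parental cells. They and HSPB1, whose rise was smaller than that of the J-domain protein DNAJB5, were all called higher in persister cells and lower after withdrawal. HSPB8 (chr12:119178642-119221131, GENCODE 29 on GRCh38, plus strand), a partner of BAG3 in the clearance of misfolded proteins, was at 3.70 CPM in the parental library. Persister libraries 1 to 5 read 107, 66.5, 108, 112 and 122 CPM, and withdrawn libraries 1 to 5 read 16.8, 14.6, 18.1, 21.1 and 15.2 CPM. The 3 groups do not overlap, and persister 2 is the low library of its group. HSPB8 was thus 27.8-fold higher in persister than in parental cells (log2 fold change 4.80, SE 0.39, adjusted p = 9.34e-06) and 6.00-fold lower after withdrawal (log2 -2.58, SE 0.17, adjusted p = 3.55e-07). It was still 4.64-fold above the parental library after withdrawal (log2 2.21, SE 0.33, adjusted p = 0.0208), a call that limma-voom did not make (adjusted p = 0.0707).

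CRYAB (chr11:111908565-111923722, minus strand), which encodes alpha-B-crystallin, was at 1.06 CPM in the parental library and at 6.74, 11.4, 12.8, 21.4 and 15.9 CPM in persister libraries. Withdrawn libraries read 4.39, 2.68, 3.72, 4.74 and 3.08 CPM, between the parental library and the lowest persister library. The rise was 12.9-fold (log2 3.69, SE 0.63, adjusted p = 0.00138) and the fall on withdrawal 3.66-fold (log2 -1.87, SE 0.28, adjusted p = 0.000187). The remaining 3.52-fold gap to the parental library had an adjusted p of 0.161, and of 0.00196 with only those 2 groups in the fit. Exons of CRYAB overlap HSPB2 on the opposite strand over 20.6% of their length, and HSPB2 had 0 CPM in every library.

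HSPB1 (chr7:76302544-76304295, plus strand), or HSP27, is the most abundant of the 3 per kilobase of exon, with 45.5 CPM per kb in the parental library against 1.29 for HSPB8 and 0.348 for CRYAB. It read 74.3 CPM in the parental library, 237, 153, 216, 204 and 180.1 CPM in persister libraries and 139, 136, 143, 131 and 113 CPM in withdrawn libraries. No library of 1 group overlaps another group. The level was 2.67-fold higher in persister cells (log2 1.42, SE 0.23, adjusted p = 0.000949) and 1.5-fold lower after withdrawal (adjusted p = 0.00147), when it stood 1.78-fold above the parental library (adjusted p = 0.110, and 0.0452 without persister 2).

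**Figure D2:**
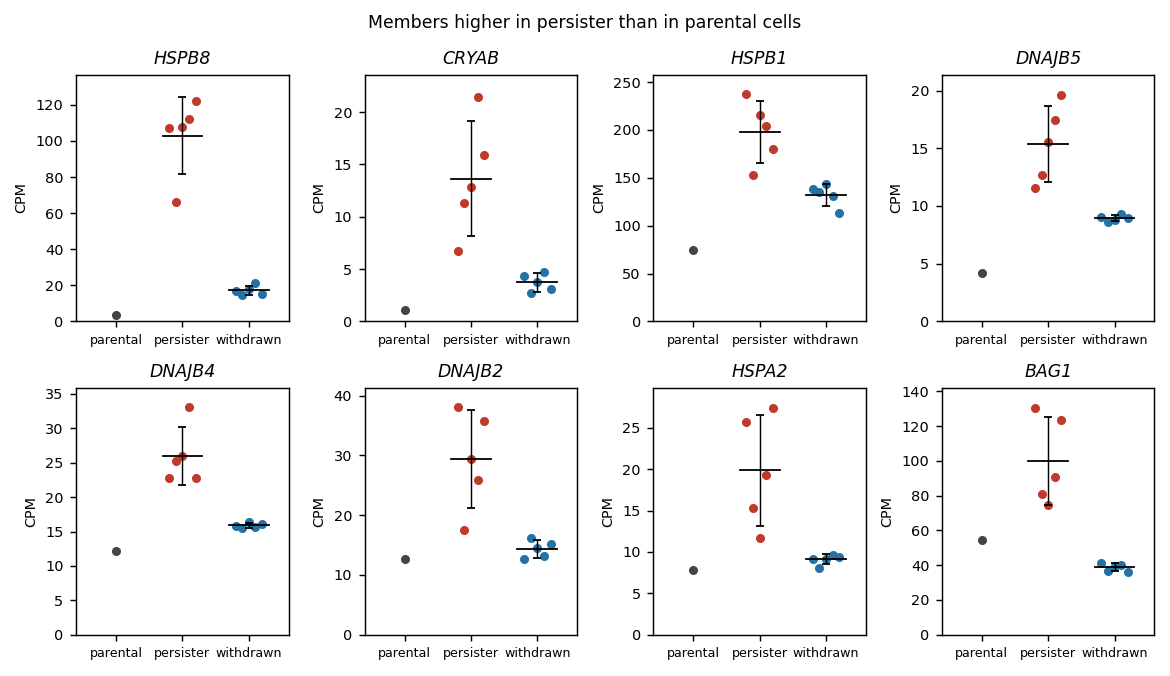
CPM of 8 members higher in persister than in parental cells, by library (points), with the mean and SD of the 5 persister and 5 withdrawn libraries (lines and bars) and the parental library as a lone point. HSPB8 rises from 3.70 CPM to 66.5 to 122 CPM in persister libraries, and BAG1 falls after withdrawal to 36.3 to 41.4 CPM, below the parental 54.8 CPM.

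The J-domain proteins deliver substrates to HSP70 and start its ATPase. All 5 class B members were called higher in persister cells (16.1% of all genes were) and the 3 class A members were not. A difference between the classes was not tested. After withdrawal 6 of 8 J-domain members, the class A DNAJA1 among them, were lower (28% of all genes) and none higher (24.5%). DESeq2 and an unadjusted p under 0.05 gave the same 6 and 0 on the same libraries. DNAJB5 (chr9:34989641-34998900, plus strand) was at 4.22 CPM in the parental library, at 11.5, 12.7, 15.5, 17.4 and 19.6 CPM in persister libraries and at 9.07, 8.58, 8.75, 9.27 and 8.97 CPM in withdrawn libraries. Its groups do not overlap, with a 3.64-fold rise (log2 1.86, SE 0.29, adjusted p = 0.000703) and a 1.72-fold fall (adjusted p = 0.000721). DNAJB5 stayed 2.11-fold above the parental library, with an adjusted p of 0.0975 that became 0.038 without persister 5.

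DNAJB4 (chr1:77979175-78017964, plus strand) read 12.1 CPM in the parental library, 22.8, 25.3, 26.0, 33.1 and 22.8 CPM in persister and 15.8, 15.5, 16.4, 15.7 and 16.2 CPM in withdrawn libraries. The groups are apart, and the withdrawn libraries differ by less than 1 CPM from each other. The rise was 2.14-fold (log2 1.10, SE 0.20, adjusted p = 0.00217) and the fall 1.64-fold (adjusted p = 0.000204). DNAJB2 (chr2:219279267-219286900, plus strand), which sends HSP70 clients to the proteasome, read 12.6 CPM in the parental library, 38.1, 17.5, 29.4, 25.9 and 35.8 CPM in persister and 12.7, 16.2, 14.6, 13.2 and 15.1 CPM in withdrawn libraries. Persister 1 and 5 were its high libraries and persister 2 its low one, just above the withdrawn group. It rose 2.32-fold (log2 1.22, SE 0.34, adjusted p = 0.0197) and fell 2.04-fold after withdrawal (log2 -1.03, adjusted p = 0.000584).

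DNAJB1, or HSP40, the classical partner of the inducible HSP70, read 165 CPM in the parental library, 226 to 306 CPM in persister and 161 to 178 CPM in withdrawn libraries. That is a 1.64-fold rise (adjusted p = 0.00891) and a 1.60-fold fall (adjusted p = 0.000105). DNAJB6, which holds back aggregation, read 214 CPM, 255 to 341 CPM and 196 to 230.2 CPM, a 1.41-fold rise (adjusted p = 0.0388) and a 1.44-fold fall (adjusted p = 0.00057). The DNAJB6 rise was near the threshold: leaving out persister 3 or 4, or withdrawn 1, 2, 3 or 5, gave adjusted p of 0.0515 to 0.0596. In the fit of only the parental and persister libraries DNAJB1 (adjusted p = 0.0980), DNAJB2 (0.101) and DNAJB6 (0.175) were not called, with log2 fold changes of 0.71, 1.22 and 0.50.

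Among the class A members, DNAJA1 read 371 CPM in the parental library and 354 to 549 CPM in persister libraries, with persister 2 the highest. It was 234 to 259 CPM in withdrawn libraries, 1.79-fold below persister cells (adjusted p = 5.74e-05) and 1.53-fold below the parental library (adjusted p = 0.138, and 0.0439 without persister 2). DNAJA2 was the steadiest member, at 131 CPM in the parental library, 133 to 144 in persister and 127 to 145 in withdrawn libraries. DNAJA4, with 2 to 36 counts per library, was not called.

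The cytosolic HSP70 genes went several ways. HSPA8 (chr11:123057489-123063230, minus strand), the constitutive HSC70, was at 2658 CPM in the parental library, 2592, 3119, 2061, 2206 and 2048 CPM in persister libraries and 1433, 1627, 1477, 1501 and 1345 CPM in withdrawn libraries. Persister libraries lie on both sides of the parental library, and all 5 withdrawn libraries lie below both other groups. The persister level was not called different from the parental one (log2 -0.14, SE 0.21, adjusted p = 0.634). After withdrawal HSPA8 was 1.63-fold lower than in persister cells (log2 -0.70, SE 0.13, adjusted p = 0.000624) and 1.80-fold lower than in the parental library (log2 -0.85, SE 0.20, adjusted p = 0.0923). That second adjusted p was 0.0294 without persister 2 and 0.041 without persister 5, 0.0111 by DESeq2 and 2.19e-05 with the parental and withdrawn libraries alone.

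HSPA1A and HSPA1B, the stress-inducible HSP70 genes, are near copies that share 71.3% and 73.5% of their 50-base words, so how the counting split reads between them is uncertain. HSPA1A (chr6:31815464-31817946, plus strand) read 128 CPM in the parental library, 217, 168, 169, 129.6 and 166 CPM in persister libraries and 84.3, 89.9, 92.2, 82.3 and 81.3 CPM in withdrawn libraries. Every persister library was above the parental library and every withdrawn library below it, with persister 4 the nearest to it. The persister difference was 1.33-fold (log2 0.41, SE 0.21, adjusted p = 0.154), and 0.0461 was the adjusted p without persister 4. Between persister and withdrawn cells it was 1.97-fold lower (log2 -0.98, SE 0.12, adjusted p = 3.54e-05). HSPA1B read 24.1 CPM, 16.5 to 28.6 CPM and 13.1 to 14.9 CPM, and its fall on withdrawal was 1.63-fold (adjusted p = 0.000897).

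HSPA2 (chr14:64535905-64546173, plus strand), known for its role in the testis, was at 7.88 CPM in the parental library, 25.7, 15.3, 11.7, 19.3 and 27.4 CPM in persister libraries and 9.12, 8.13, 9.19, 9.69 and 9.43 CPM in withdrawn libraries. Persister 1 and 5 were the high libraries and persister 3 the low one, still above all withdrawn libraries. The rise was 2.53-fold (log2 1.34, SE 0.39, adjusted p = 0.0236, and 0.116 with only the parental and persister libraries), and the fall 2.18-fold (log2 -1.13, SE 0.21, adjusted p = 0.000765).

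HSPA6 and HSPA12A moved the other way. HSPA6 (chr1:161524540-161526910, plus strand), a strictly stress-inducible HSP70, read 2.23 CPM in the parental library, 0.507, 0.387, 0.959, 0.912 and 1.17 CPM in persister libraries and 3.65, 4.26, 3.84, 3.79 and 3.83 CPM in withdrawn libraries. The 3 groups do not overlap. Behind these values are 146 counts in the parental library, 21 to 86 in persister and 243 to 278 in withdrawn libraries. It was 2.82-fold lower in persister than in parental cells (log2 -1.49, SE 0.42, adjusted p = 0.0184, and 0.130 with only those libraries) and 4.88-fold higher after withdrawal (log2 2.29, SE 0.28, adjusted p = 3.53e-05). HSPA6 shares 45.5% of its 50-base words with the pseudogene HSPA7, which read 0.275 CPM, 0.0307 to 0.182 CPM and 0.613 to 0.741 CPM in the 3 groups.

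HSPA12A (chr10:116671192-116850236, minus strand), a distant HSP70 relative, read 25.8 CPM in the parental library, 11.9, 12.7, 14.5, 16.2 and 12.0 CPM in persister libraries and 30.1, 28.0, 24.8, 30.6 and 27.6 CPM in withdrawn libraries. Persister libraries are all below the rest, and withdrawn 3 alone of its group is below the parental library. The fall was 1.92-fold (log2 -0.94, SE 0.17, adjusted p = 0.0021, and 0.0501 with only the parental and persister libraries) and the rise after withdrawal 2.09-fold (log2 1.07, SE 0.11, adjusted p = 1.01e-05).

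HSPA14, which binds ribosomes with a J-domain partner, was 1.84-fold lower in persister cells on its record ENSG00000187522 (31.4 CPM against 10.8 to 21.3 CPM, adjusted p = 0.0237, and 0.132 with only those libraries), while withdrawn libraries read 18.9 to 23.4 CPM. Its second record, of a shorter span, read 23.5 CPM, 16.8 to 28.6 CPM and 20.1 to 22.2 CPM and was not called (adjusted p = 0.787). The records overlap on the same strand, so reads of the gene may have been split between them. HSPA13 read 58.1 CPM, 22.1 to 47.8 CPM and 41.3 to 48.6 CPM. With an adjusted p of 0.0503 for persister against parental cells (log2 -0.81, SE 0.29), HSPA13 fell just outside the call, and within it without persister 1 (0.048), 2 (0.00537) or 4 (0.0446). With all libraries kept, HSPA13 was called lower by the DESeq2 test, by limma-voom and in edgeR with DESeq2 size factors or library size alone. A filter of at least 10 counts in 5 libraries also gave the call, and the fit with no low-count filter did not. For withdrawn against persister cells (log2 0.43, adjusted p = 0.0606), the fit with culture number as a block called it (adjusted p = 0.0321), as did the fit without persister 2 (0.00407).

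The HSP110 genes encode nucleotide exchange factors that resemble HSP70, and none was called in persister against parental cells by edgeR or DESeq2, with 2 lower at an unadjusted p under 0.05. HSPA4L (chr4:127781821-127840733, plus strand) read 19.7 CPM in the parental library, 26.1, 48.9, 30.7, 33.0 and 16.8 CPM in persister libraries and 14.8, 14.5, 15.3, 17.0 and 13.5 CPM in withdrawn libraries. Persister 5 alone was below the parental library and within the withdrawn range, and without it the persister difference was called (log2 0.82, adjusted p = 0.044, against 0.66 and 0.232 with it). The fall on withdrawal was 2.07-fold (log2 -1.05, SE 0.22, adjusted p = 0.00214). HSPH1 was highest in the parental library, at 578 CPM, against 303 to 483 CPM in persister and 305 to 355 CPM in withdrawn libraries. Its differences stayed short of the threshold (persister against parental adjusted p = 0.0662, and 0.0243, 0.0486 and 0.0466 without persister 2, 4 and 5, and 0.0296 with scaling to library size alone; withdrawn against persister 0.0672, and 0.00707 without persister 5; withdrawn against parental 0.0947, and 0.0498 and 0.0234 without persister 2 and 5). HSPA4 read 564 CPM, 382 to 497 CPM and 433 to 486 CPM, with no call in the fit of all libraries. It was called lower than in the parental library in persister cells with scaling to library size alone (log2 -0.39, adjusted p = 0.0365, against 0.116) and in withdrawn cells with those 2 groups alone (log2 -0.29, adjusted p = 0.00604, against 0.411).

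HSP90, which folds kinases and other signalling proteins, was not called in any comparison by edgeR with all libraries or by DESeq2, nor did either gene reach an unadjusted p under 0.05 in edgeR. HSP90AA1 (chr14:102080738-102139699, minus strand), the inducible cytosolic form, read 2837 CPM in the parental library, 2101, 3006, 2587, 2749 and 1684 CPM in persister libraries and 3128, 2618, 3034, 3055 and 2494 CPM in withdrawn libraries. Persister 5 and 1 were the low libraries, and the groups overlap. The log2 fold change was -0.23 (SE 0.26, adjusted p = 0.526) in persister against parental cells and 0.24 (SE 0.15, adjusted p = 0.199) after withdrawal. HSP90AB1 (chr6:44246166-44253888, plus strand), the constitutive form, read 2603 CPM in the parental library, 1855, 2426, 2133, 2175 and 1401 CPM in persister libraries and 2238, 2279, 2327, 2245 and 2204 CPM in withdrawn libraries. All 10 other libraries were below the parental library, by a log2 fold change of -0.38 in persister (SE 0.22, adjusted p = 0.203) and -0.20 in withdrawn cells (SE 0.22, adjusted p = 0.716, and 0.0162 with only the parental and withdrawn libraries).

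Per kilobase of exon these are the most abundant members: HSP90AB1 had 874 CPM per kb in the parental library, HSPA8 548, HSP90AA1 541 and HSPD1 253. HSPA8 was at 496 CPM per kb in persister libraries and fell after withdrawal, to 305 CPM per kb, beside 758 for HSP90AB1, 546 for HSP90AA1 and 197 for HSPD1. All members together took 1.37% of counts in the parental library, 0.975% to 1.40% in persister and 1.02% to 1.12% in withdrawn libraries. Of the HSP90 co-chaperones among the members, STIP1, which joins HSP70 to HSP90, read 422 CPM, 238 to 403 CPM and 319 to 376 CPM. AHSA1, an activator of the HSP90 ATPase, read 165 CPM, 125 to 175 CPM and 137 to 146 CPM. Neither was called in the fit of all libraries, although AHSA1 was called lower in withdrawn than in persister cells without persister 5 (adjusted p = 0.0151, against 0.203). With the parental and withdrawn libraries alone, both were called lower in withdrawn cells (log2 -0.24 for AHSA1 and -0.26 for STIP1).

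**Figure D3:**
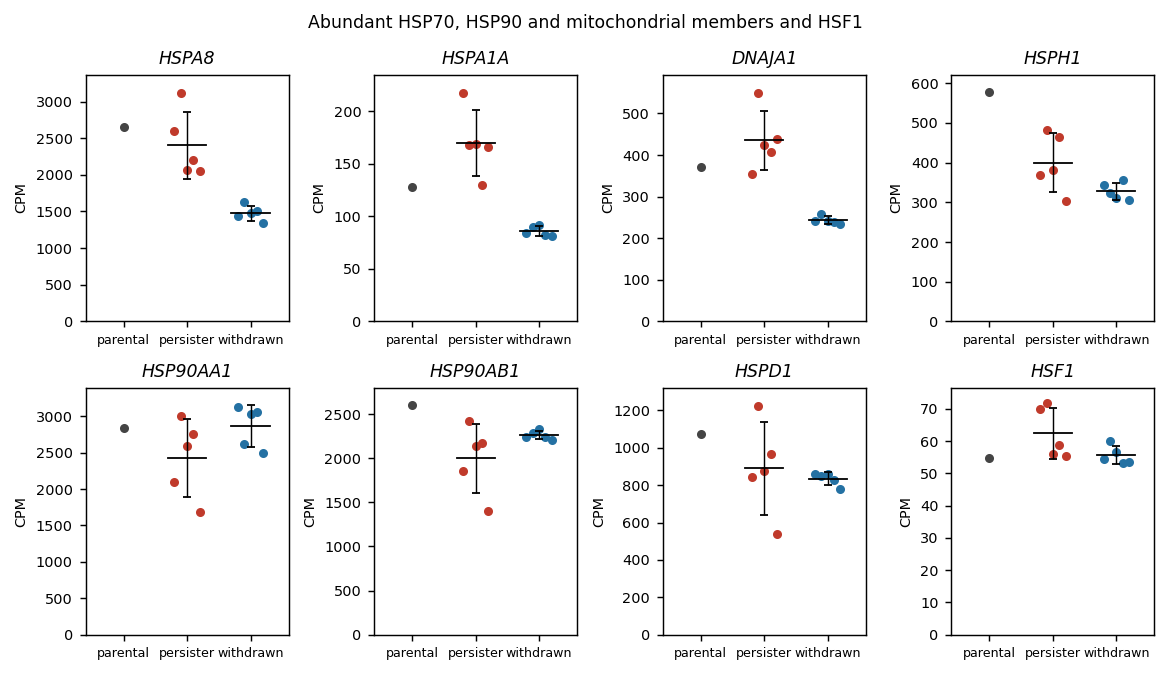
CPM by library (points) of HSPA8, HSPA1A, DNAJA1 and HSPH1 (upper row) and of HSP90AA1, HSP90AB1, HSPD1 and HSF1 (lower row), with the mean and SD of the 5 persister and 5 withdrawn libraries. HSPA8 falls to 1345 to 1627 CPM after withdrawal from 2658 CPM in the parental library, while HSP90AA1 overlaps between groups and spreads from 1684 to 3006 CPM among persister libraries.

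The 4 mitochondrial chaperones gave no call in persister against parental cells by edgeR or DESeq2, and none had an unadjusted p under 0.05. HSPD1 (chr2:197486581-197516737, minus strand), or HSP60, read 1074 CPM in the parental library, 841, 1223, 877, 967 and 537 CPM in persister libraries and 859.8, 851, 858, 825 and 782 CPM in withdrawn libraries. Persister 2 was above the parental library, persister 5 at 537 CPM was far below every withdrawn library, and the withdrawn libraries were all below the parental one. The log2 fold change was -0.27 (SE 0.29, adjusted p = 0.495) in persister against parental and -0.09 (SE 0.17, adjusted p = 0.678) in withdrawn against persister cells, where leaving out persister 2 turned it to 0.05 (adjusted p = 0.782) and leaving out persister 1 and 5 gave a called fall (log2 -0.29, adjusted p = 0.0255). In withdrawn against parental cells it was called lower with those 2 groups alone (log2 -0.38, adjusted p = 0.000939, against 0.594). HSPE1, or HSP10, the lid of that chamber, read 48.3 CPM, 39.5 to 61.5 CPM and 34.7 to 41.2 CPM. It fell 1.25-fold after withdrawal (log2 -0.32, SE 0.11, adjusted p = 0.0294), and leaving out persister 3 or withdrawn 2, 3 or 5 gave adjusted p of 0.0518 to 0.0748.

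HSPA9, or mortalin, the HSP70 of the matrix, read 604 CPM in the parental library, 534 to 829 CPM in persister and 427 to 483 CPM in withdrawn libraries. Its fall on withdrawal was 1.42-fold (log2 -0.51, SE 0.11, adjusted p = 0.00304). TRAP1, the mitochondrial HSP90, went the other way: it read 110.1 CPM in the parental library, 43.7 to 114 CPM in persister and 120.2 to 136 CPM in withdrawn libraries, with persister 5 the lowest. TRAP1 rose 1.60-fold on withdrawal (log2 0.68, SE 0.20, adjusted p = 0.0129). Its exons overlap DNASE1 on the opposite strand over 29.3% of their length, and DNASE1 read 6.06 to 13.5 CPM over all libraries.

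BAG proteins release substrates from HSP70. BAG1 (chr9:33247820-33264720, minus strand), which links HSP70 to the proteasome, was at 54.8 CPM in the parental library, 131, 80.8, 74.6, 90.6 and 123 CPM in persister libraries and 41.4, 36.6, 39.7, 40.0 and 36.3 CPM in withdrawn libraries. Persister libraries are all above the parental library, highest in persister 1 and 5, and withdrawn libraries are all below it. The rise was 1.83-fold (log2 0.87, SE 0.28, adjusted p = 0.0333, and 0.141 with only the parental and persister libraries) and the fall 2.58-fold (log2 -1.37, SE 0.15, adjusted p = 2.02e-05). BAG1 ended 1.41-fold below the parental library (log2 -0.50, SE 0.25, adjusted p = 0.374, and 0.000436 with only the parental and withdrawn libraries).

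BAG2, an inhibitor of the ubiquitin ligase STUB1, read 28.1 CPM, 33.0 to 50.7 CPM and 21.6 to 24.5 CPM. Its 1.49-fold rise was at the threshold (adjusted p = 0.0491), and leaving out persister 3 or 4, or any of the 5 withdrawn libraries, gave 0.0586 to 0.0742. Its 1.82-fold fall on withdrawal was called (adjusted p = 6.25e-05). BAG2 overlaps RAB23 on the opposite strand over 42.7% of its exon length, and RAB23 read 9.18 CPM, 12.6 to 25.8 CPM and 8.02 to 9.29 CPM. Whether the counting used strand is not given in the sources used here, so reads of the pair may not be told apart. BAG3, the partner of HSPB8 in selective autophagy and a known HSF1 target, was not called: it read 119 CPM, 83.0 to 116 CPM and 102 to 122 CPM.

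Of the transcription factors, HSF1 was not called and HSF2 was lower in persister cells. HSF1 was at 54.8 CPM in the parental library, 70.0, 71.9, 55.9, 59.0 and 55.3 CPM in persister libraries and 54.5, 60.1, 56.6, 53.3 and 53.7 CPM in withdrawn libraries. Persister 1 and 2 were the high libraries, and the other libraries lay within 7 CPM of each other. Its log2 fold change was 0.19 in persister against parental (SE 0.16, adjusted p = 0.396) and -0.17 in withdrawn against persister cells (SE 0.09, adjusted p = 0.151). RNA level says nothing of the activity of HSF1, which is set by its phosphorylation, trimer formation and release from chaperones. HSF2 read 23.0 CPM, 13.7 to 17.3 CPM and 20.6 to 24.0 CPM. It was 1.49-fold lower in persister cells (adjusted p = 0.0167, and 0.148 with only the parental and persister libraries) and 1.45-fold higher after withdrawal (adjusted p = 0.000617).

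**Figure D4:**
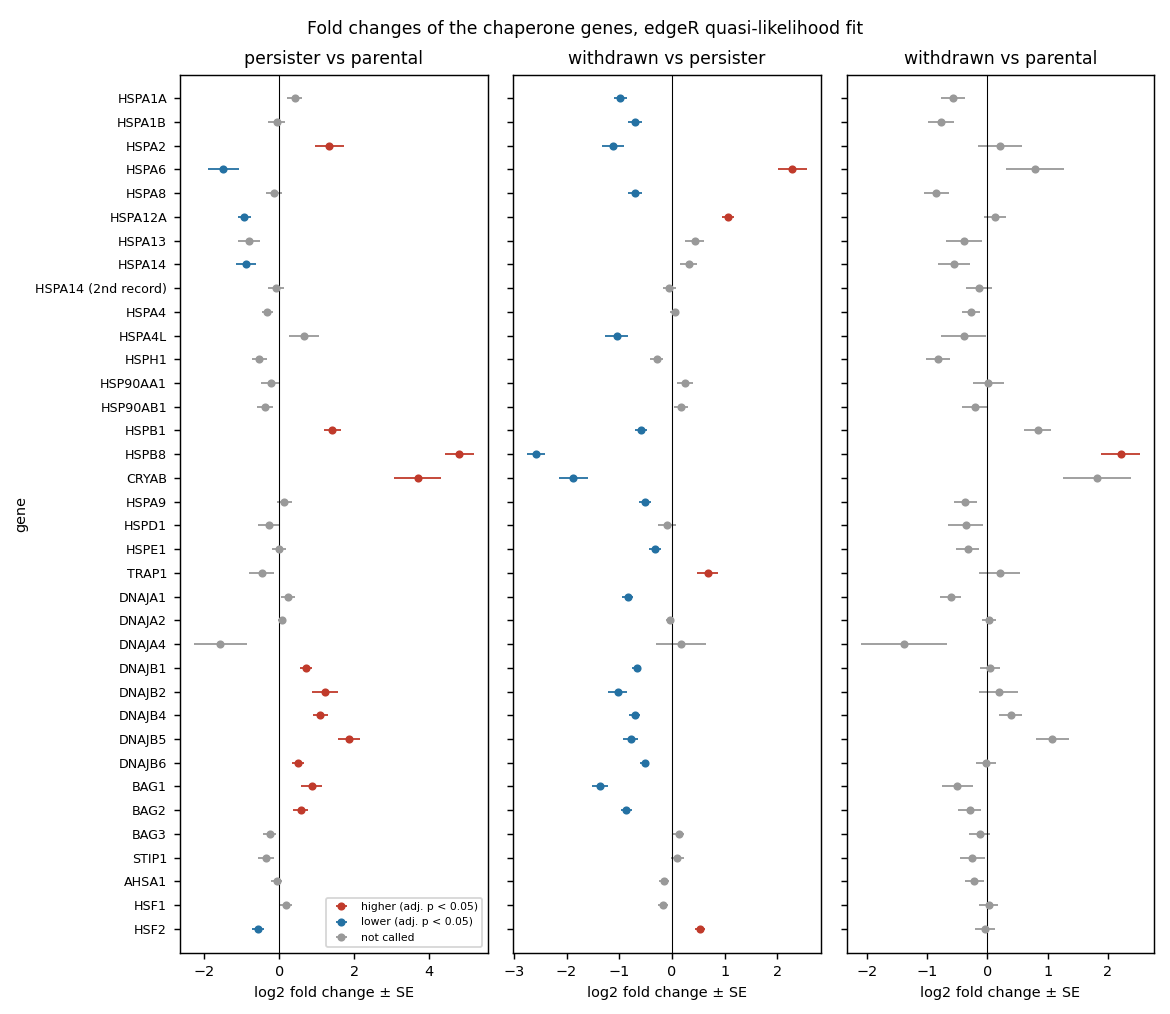
Log2 fold change with its standard error for the 36 entries in the 3 comparisons, from the edgeR fit over all libraries; red marks entries called higher, blue called lower and grey not called. Persister against parental has 11 red and 4 blue entries, withdrawn against persister 4 red and 18 blue, and withdrawn against parental only HSPB8, in red.

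The same libraries stood at the ends of the persister range for many members. Persister 5 was the lowest persister library for 19 of 36 entries (52.8%, against 24.6% of all genes tested), and persister 2 the highest for 18 (50%, against 24.5%). HSP90AA1, HSP90AB1, HSPD1, TRAP1, STIP1, HSPH1 and AHSA1 were among those lowest in persister 5. HSPB8, HSPA2, DNAJB5 and HSPA6 were highest there (4 of 36, 11.1%, against 26.5% of all genes tested). The 20 S phase genes summed to 1157, 2723, 1950 and 2024 CPM in persister libraries 1 to 4 and to 589 CPM in persister 5, beside 2756 CPM in the parental library and 2113 to 2287 CPM in withdrawn libraries. Their part in the chaperone values was not tested. In a fit without persister 1 and 5, which have the lowest S phase sums, 12 entries were called higher and 5 lower for persister against parental cells, beside 20.1% and 18.8% of all genes. For withdrawn against parental cells that fit called 4 higher and 7 lower, beside 5.38% and 3.66% of all genes. Among withdrawn libraries, withdrawn 5 was the lowest for 20 of 36 entries (55.6%, against 20% of all genes).

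The coefficient of variation was larger among persister than among withdrawn libraries for 35 of 36 entries, all but DNAJA2, and for 80.7% of all genes tested. For HSP90AB1 it was 19.5% in persister and 2.06% in withdrawn libraries, and for HSPD1 27.8% and 3.94%. TRAP1 had 32.6% and 4.53%, and DNAJA2 had 3.26% and 5.33%.

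Chaperone genes outside the 35 members were taken from 5 lists made by role. Of these 50 genes, 6 rose (12%) and 4 fell (8%) from parental to persister cells, and 12 rose (24%) and 11 fell (22%) after withdrawal, beside the shares of all genes given above; none was called between withdrawn and parental cells by edgeR or DESeq2, where 2 were higher and 3 lower at an unadjusted p under 0.05 in edgeR. Their median log2 fold changes were -0.08, 0.01 and -0.10 in the order persister against parental, withdrawn against persister and withdrawn against parental. The TRiC chaperonin, the cytosolic folding chamber for actin and tubulin, had 0 of 8 subunits called in persister cells by edgeR or DESeq2 (1 lower at an unadjusted p under 0.05 in edgeR) and 1 higher after withdrawal. That was CCT8 (292 ± 62.1 to 385 ± 16.8 CPM, 1.32-fold, adjusted p = 0.0271), not called without persister 1 or withdrawn 1, 2 or 3 (adjusted p of 0.0571 to 0.0697).

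Prefoldin, which hands nascent actin and tubulin to TRiC, had 2 of 6 subunits higher in persister cells and none lower, and 3 higher and 2 lower after withdrawal. PFDN5 was at 147 CPM in the parental library, 277 ± 37.3 in persister and 187 ± 7.17 in withdrawn libraries, the largest rise in persister cells (1.89-fold, adjusted p = 0.00305, and 0.0577 with the parental and persister libraries alone) and the largest fall after withdrawal (1.48-fold, adjusted p = 0.000488). VBP1 had the largest rise after withdrawal (1.26-fold, adjusted p = 0.0247), not called without persister 1 or withdrawn 1, 2 or 5 (0.0529 to 0.0673). Of 12 further HSP90 co-chaperones, only CDC37, which brings kinases to HSP90, was called in persister cells, at 320 CPM in the parental library against 441 ± 51.8 CPM (1.38-fold higher, adjusted p = 0.0458). That call was lost without persister 1, 3 or 4 or any of the 5 withdrawn libraries (0.0517 to 0.0782). After withdrawal 3 were higher and 3 lower, with the largest fall in CDC37 (274 ± 5.93 CPM, 1.61-fold, adjusted p = 6.56e-05) and the largest rise in FKBP5 (1.62-fold, adjusted p = 0.0445). Leaving out any library other than persister 2 took the FKBP5 call away (0.0578 to 0.0889).

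Of 12 HSP70 co-chaperones, 2 were higher and 1 lower in persister cells, and 1 was higher and 4 lower after withdrawal. STUB1, or CHIP, the ubiquitin ligase that acts on HSP70 clients, was at 21.2 CPM in the parental library, 42.6 ± 5.21 in persister and 22.8 ± 1.78 in withdrawn libraries, 2.01-fold higher (adjusted p = 0.00207) and then 1.87-fold lower (adjusted p = 1.88e-05). BAG4 was the gene that went the other way, from 38.7 CPM to 19.7 ± 2.20 (1.96-fold lower, adjusted p = 0.000794) and back to 34.7 ± 2.38 CPM (1.76-fold higher, adjusted p = 2.73e-05). Of 12 mitochondrial co-chaperones and proteases, 1 was higher and 3 lower in persister cells, and 4 were higher and 2 lower after withdrawal. GRPEL2, an exchange factor of mortalin, had the largest fall (81.8 to 36.9 ± 6.62 CPM, 2.22-fold, adjusted p = 0.00168) and the largest rise after withdrawal (to 61.7 ± 7.31 CPM, 1.67-fold, adjusted p = 0.000499). HSCB, a J-domain protein of iron-sulfur cluster assembly, rose most in persister cells (1.89-fold, adjusted p = 0.0125, and 0.111 with the parental and persister libraries alone), and SPG7, a protease subunit, fell most after withdrawal (1.79-fold, adjusted p = 1.56e-05).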

How the data were processed

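Stranded poly(A) RNA libraries of A375 cells were made, per the labels' protocols. The authors deposited raw read counts per gene; per the submitters' processing notes, bcl2fastq, HISAT2, HTSeq and build hg38 were used, while no version, strand setting or annotation release is given in the sources used here. All 58721 gene IDs matched GENCODE 29. From the deposited counts, genes were filtered with filterByExpr by group (minimum count 10, minimum total 15), which left 23693, scaled by TMM and tested with edgeR 4.0.16 (R 4.3.3; robust quasi-likelihood fit, 11 libraries in 3 groups, 8 residual degrees of freedom, Benjamini-Hochberg over all genes, threshold 0.05). Fold changes are those of the fit, and SD is over 5 libraries. SE is the absolute log2 fold change divided by the square root of the F statistic of its edgeR test. The fit was also run on simulated counts that gave a gene the same spread in every group. That run therefore does not cover the larger spread among persister libraries.

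Members and lists were chosen with earlier results of these data known. Every member is named; values in each library are given for members called with an absolute log2 fold change of at least 1 and for HSPA1A, HSPA8, HSP90AA1, HSP90AB1, HSPD1 and HSF1. From each list of further chaperones, the called genes with the largest rise and fall are named; DUSP6 and SOX10 stand for the context lists. Beyond this rule, other markers and genes that overlap a member or share its sequence were named after their values were seen.

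Alternatives were DESeq2 1.42.0 (test, and size factors in edgeR), limma-voom (limma 3.58.1), library size alone, other filters, the 2 groups alone, leaving out libraries, and a block for culture. The library names give each withdrawn library the number of a persister culture, and their deviations from the group means correlated at 0.0930, 0.0793, 0.133, 0.146 and 0.145 over 12944 genes; in 4 of 5 cultures no other withdrawn library correlated more. The pairing was taken from the names. The value of 1 leukocyte marker is not reported here.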

Additional observations from a re-analysis of the deposited data

Results flagged for a closer look

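Each member was checked for a library far from the other 4 of its group, by the gap to its neighbour over the group's range (Dixon's critical value 0.71 for 5 samples). Of 72 groups checked, 2 stood out, where chance flags about 1 in 20. HSPB8 was at 66.5 CPM in persister 2 against 107 to 122 CPM in the other persister libraries, and 66.5 CPM is still above all withdrawn libraries. HSPA9 was at 427 CPM in withdrawn 5 against 469.6 to 483 CPM in the other withdrawn libraries.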

How the results depend on the processing

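The members called between withdrawn and persister cells numbered 4 to 5 higher and 17 to 21 lower over all alternatives. Among all genes these fits called 5058 to 6219 higher and 5419 to 6933 lower, of 19631 to 40697 tested. The 21 lower came without persister 1 and 5, where 6625 of 23075 genes tested were lower. The fit with culture number as a replicate block gave 5 higher and 18 lower, beside 5211 and 5419 of 19631 genes tested. It added HSPA13 and changed no other member call. For persister against parental cells, the 2 groups alone gave 5 higher and 0 lower, and library size alone gave 7 lower. For withdrawn against parental cells, the 2 groups alone gave 6 higher and 17 lower, DESeq2 4 and 4, limma-voom 0 higher, and the fit without persister 1 and 5 gave 4 and 7; leaving out 1 library gave 1 to 2 higher and 0 to 3 lower. Over all genes, persister against parental cells gave 3819 higher and 3572 lower, and 1354 and 1215 with the 2 groups alone. Withdrawn against parental cells gave 74 higher and 28 lower, 3483 and 3110 with the 2 groups alone, 775 and 409 by DESeq2, and 1241 and 845 without persister 1 and 5. Leaving out a persister library moved that last count to 252 higher and 109 lower (without persister 2) and 374 and 184 (without persister 5), and leaving out withdrawn 5 to 19 and 4. Library size alone gave 3411 higher and 4044 lower genes for persister against parental cells, and limma-voom 3077 and 3922. Why these counts moved was not tested.

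The results followed for single genes were those called, and those of HSPA1A, HSPA8, HSP90AA1, HSP90AB1, HSPD1 and HSF1 whether called or not. Of these 54, 34 kept their direction and their side of the threshold in every alternative. Uncalled results of other members are not in this count. Several of them were called in some alternative, among them results of HSPH1, HSPA13, DNAJB5 and DNAJA1. Uncalled log2 fold changes near 0 changed sign. HSF1 in withdrawn against parental cells was -0.0020 and -0.0053 with DESeq2 size factors and library size alone, -0.0021 with DESeq2, and from -0.014 to 0.0387 when 1 library was left out. HSP90AA1 in the same comparison was -0.0098 and -0.0131 with those scalings, -0.0098 with DESeq2, -0.0012 with the 2 groups alone, and from -0.0251 to 0.0544 when 1 library was left out. HSPD1 in withdrawn against persister cells ran from -0.227 to 0.0514 when 1 library was left out, positive without persister 2; without persister 1 and 5 it was -0.295 and called (adjusted p = 0.0255). Depth limits DNAJA4 and HSPA6, with 2 and 21 counts at the lowest.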
